A study of Homo sapiens with 9 samples.

Results

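PLEKHS1, CA8, EDN3, NGFR, NUDT12 and C6orf141 are 6 genes whose mean level differed by at least 8-fold between LIM1215-R1 and LIM1215-R2, which were made resistant to cetuximab from LIM1215, a cell line of colorectal cancer. They are 6 of 58920 genes listed and of 19102 genes tested. They were chosen by the ratio of their mean CPM in LIM1215-R1 and LIM1215-R2, so that difference is given here as a description without a test. LIM1215 is an established human line, and cetuximab is an antibody against the epidermal growth factor receptor. Both resistant lines were raised side by side and independently from LIM1215 by culture in rising amounts of cetuximab, and each is a heterogeneous population and not a clone. The study reports an activating HRAS mutation in a subpopulation of each, and the mutation differs between the lines. LIM1215-parental was carried along without the antibody. RNA was taken from all lines under basal culture in RPMI medium with fetal bovine serum and sequenced as poly(A) RNA, with 3 libraries per line that the study calls technical replicates.

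Total counts lay between 13737416 and 18725014 per library, and values are read counts or CPM, the counts scaled to library size with TMM factors. Where 3 lines are given in a row without names, the order is parental, R1, R2. Because the libraries may share a culture, the p-values below measure the spread between libraries and not between separate cultures. Of 11 markers of colorectal epithelium, 10 had counts in every line, while KRT20 was at 0. Summed, they lay at 12890 to 13264 CPM in parental libraries, 16471 to 16791 CPM in R1 and 15027 to 15441 CPM in R2. Most of the sum was KRT8 (5720, 7880 and 7170 CPM) and KRT18 (4130, 5500 and 5010 CPM). Mean levels of KRT8, KRT18, KRT19, VIL1 and GPA33 were higher in both resistant lines than in parental cells. Those of EPCAM, CDH1, CDX1, CDX2 and LGALS4 were lower in both. EDN3 and NGFR are known from the enteric nervous system, and 12 markers of enteric neural crest and glia summed to at most 0.123 CPM in any library. Fibroblast markers summed to 1.19 to 3.19 CPM, and leukocyte markers to 7.2 to 14.6 CPM, most of it CD68, with PTPRC and CD3E at 0 in all lines.

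The genes belong to separate systems. EDN3 encodes endothelin-3, a secreted peptide that is cut from a precursor by endothelin-converting enzymes and acts mainly through the receptor EDNRB, and NGFR encodes the p75 neurotrophin receptor, which works alone or with other neurotrophin receptors and sortilins. CA8 encodes a carbonic anhydrase-related protein that has lost the catalytic activity of its family and binds the inositol trisphosphate receptor ITPR1. NUDT12 encodes a Nudix hydrolase that cleaves NADH and related dinucleotides, PLEKHS1 a protein with a pleckstrin homology domain, and C6orf141 a protein of little known function.

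RefSeq promoter sequences were found for C6orf141, which had the largest ratio to parental cells among comparisons with more than 3 counts in both lines, and for PLEKHS1, which had the largest gap between the resistant lines, at 2 annotated start sites. They are the 250 bases before the start on the plus strand of GRCh38.p14, 5′ to 3′. Positions are chr6:49550418-49550667 for C6orf141, chr10:113751432-113751681 for the first PLEKHS1 start and chr10:113764569-113764818 for the second. Capitals mark matches to AP-1 (TGANTCA), the TATA box (TATAAA) and the E-box (CANNTG), searched on both strands.
C6orf141: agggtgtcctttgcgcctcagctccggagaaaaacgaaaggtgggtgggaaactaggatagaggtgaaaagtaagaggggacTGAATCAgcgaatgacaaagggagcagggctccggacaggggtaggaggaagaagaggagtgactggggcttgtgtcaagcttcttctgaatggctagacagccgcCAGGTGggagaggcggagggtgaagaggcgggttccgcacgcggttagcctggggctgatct
PLEKHS1, first start: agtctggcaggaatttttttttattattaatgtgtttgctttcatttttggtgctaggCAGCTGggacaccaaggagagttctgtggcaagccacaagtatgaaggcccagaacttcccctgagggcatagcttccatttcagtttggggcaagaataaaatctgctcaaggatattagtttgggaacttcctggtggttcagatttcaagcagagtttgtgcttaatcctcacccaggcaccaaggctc
PLEKHS1, second start: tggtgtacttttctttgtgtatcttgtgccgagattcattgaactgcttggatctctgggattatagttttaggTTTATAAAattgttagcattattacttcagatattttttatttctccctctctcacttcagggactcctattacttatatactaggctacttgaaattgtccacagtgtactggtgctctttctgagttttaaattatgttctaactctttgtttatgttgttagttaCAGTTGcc

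The windows differed in base composition. C6orf141 had 57.6% GC and a CpG ratio (observed over expected) of 0.633, close to the medians of 58% and 0.558 over all 35114 promoters. Its AP-1 match began 168 bases before the start, and 6.57% of all promoters held such a match. The first PLEKHS1 window had 44.8% GC and 0 CpG, and the second had 34% GC with 1 CpG and a CpG ratio of 0.138. In the second, 2 TATA box matches on opposite strands overlapped, a motif held by 10.7% of promoters, and each of the 3 windows held 1 E-box, as did 61.8% of promoters. CRE-like (TGACGT), ETS-like (CCGGAA), GC box (GGGCGG) and TCF/LEF-like (CTTTGA) letters were not in these windows, and were in 7.1%, 14.5%, 42.6% and 11.2% of all promoters. The matches describe letters and were not tested for factor binding.

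Among the 6, PLEKHS1 was the gene on which the lines moved in opposite directions from the parental level. The gene lies at chr10:113751682-113783429. LIM1215-parental libraries had 15, 9 and 13 counts (0.885, 0.65 and 0.683 CPM), LIM1215-R1 libraries had 141, 120 and 132 counts (8.65, 7.53 and 8.26 CPM), and LIM1215-R2 libraries had 0 counts each. All LIM1215-R1 libraries were above all parental libraries, and no LIM1215-R2 library held a single read. Against parental cells, PLEKHS1 was 11-fold higher in LIM1215-R1, a log2 change of 3.44 (SE 0.216) with adjusted p = 1.71e-12 in the quasi-likelihood test of edgeR. In LIM1215-R2 it was at least 11.9-fold lower, computed against 3 counts over the 3 libraries (0.0621 CPM), with an adjusted p of 1.14e-06. The mean of LIM1215-R1, 8.15 ± 0.567 CPM (SD, n = 3), was therefore at least 131-fold above that of LIM1215-R2, a bound that was 85.6-fold without LIM1215-R2 replicate 1. In a bulk culture, fewer cells expressing a gene and less RNA per cell cannot be told apart, which holds for every gene below.

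Replicate spread of PLEKHS1 was small in LIM1215-R1: its coefficient of variation was 6.96%, where counting error alone gives about 8.74%. Its mean level stood at the 49.6th percentile of the genes tested in LIM1215-R1 and at the 32.1th percentile in LIM1215-parental.

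**Figure D1:**
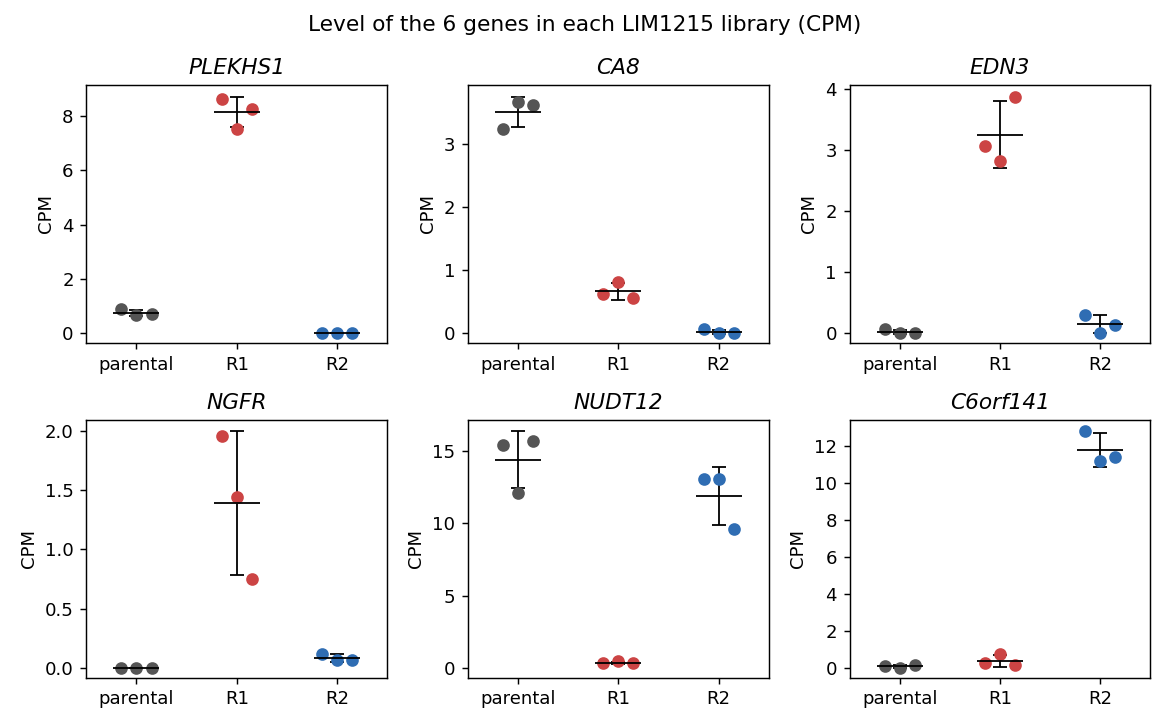
Level of the 6 genes in CPM (vertical axis, linear, with its own range for each gene) in the 3 libraries of each line (points; the horizontal bar is the mean and the whiskers are the SD). LIM1215-R1 stands above LIM1215-R2 for PLEKHS1, CA8, EDN3 and NGFR and below it for NUDT12 and C6orf141, and NUDT12 and CA8 are highest in parental cells.

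The ligand EDN3 and the receptor NGFR were almost silent in parental cells and had reads in every LIM1215-R1 library. EDN3 (chr20:59300611-59325992) had 1, 0 and 0 counts in the parental libraries, 50, 45 and 62 counts in the LIM1215-R1 libraries (3.07, 2.82 and 3.88 CPM) and 5, 0 and 2 counts in the LIM1215-R2 libraries. LIM1215-R1 stood clear of the other lines, while the ranges of LIM1215-R2 and parental cells overlapped. On the log2 scale the rise in LIM1215-R1 was 6.88 (SE 0.597, adjusted p = 3.24e-10, edgeR). With 1 count in the parental line, the ratio of the pooled levels was 162 with an exact 95% counting interval from 28.7 to 6449. Without parental replicate 1, which held that count, the fitted log2 value was 8.72, which is no bound. LIM1215-R2 did not pass the test against parental cells (log2 2.46, SE 1.16, adjusted p = 0.115, edgeR), and the counting interval of its ratio ran from 0.928 to 326. The mean of 3.26 ± 0.553 CPM (SD, n = 3) in LIM1215-R1 was 22.8-fold that of 0.143 ± 0.149 CPM in LIM1215-R2. This ratio rested on few reads. Without LIM1215-R2 replicate 1, which held 5 of the 7 counts, the pooled ratio was 51.2 (exact 95% counting interval 13.9 to 427). Without replicate 2 the ratio of means was 15.2. The interval describes counting error in a ratio by which the gene was chosen, and is no test.

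NGFR (chr17:49495293-49515008) had 0 counts in each parental library, 32, 23 and 12 counts in the LIM1215-R1 libraries (1.96, 1.44 and 0.751 CPM) and 2, 1 and 1 counts in the LIM1215-R2 libraries. The lowest LIM1215-R1 library was above the highest LIM1215-R2 library (0.119 CPM), which follows in part from the choice of the gene. Each LIM1215-R2 library was under the floor of 3 counts, so no order of these and the parental libraries is read. Against a floor of 3 counts over the parental libraries, NGFR in LIM1215-R1 exceeded parental cells at least 23-fold (adjusted p = 4.06e-07, edgeR). The 4 counts of LIM1215-R2 against 0 did not pass the test (adjusted p = 0.0936, edgeR). LIM1215-R1 had 16.9-fold the mean of LIM1215-R2, and its libraries spread more than counting error alone gives, with a coefficient of variation of 43.9% against 21.2%.

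Of 8 other genes listed for the endothelin system, 4 were tested and none was called between the resistant lines. Of all genes tested, 0.764% were called there, so 4 genes are too few to show a difference. EDNRA and EDNRB, the endothelin receptors, had 0 counts in all 9 libraries. ECE1, which cuts the precursor to the active peptide, was at 68.5 ± 1.63, 72.1 ± 4.53 and 69.5 ± 1.56 CPM (SD, n = 3). EDN1, encoding endothelin-1, was at 11.9, 14.2 and 10.7 CPM and was called in no comparison. MME, the peptidase neprilysin, which degrades small peptides including endothelins, was the gene of the 8 listed, 4 of them tested, that was called: its level went from 16.7 ± 0.608 to 1.74 ± 0.144 and 2.96 ± 0.111 CPM. On the log2 scale MME stood at -3.25 in LIM1215-R1 (SE 0.142, adjusted p = 1.6e-16, edgeR) and -2.49 in LIM1215-R2 (SE 0.128, adjusted p = 6.62e-15, edgeR).

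Among 23 listed neurotrophins, their receptors and p75 partners, 13 were tested and none was called in LIM1215-R1 against parental cells. Of all genes tested 5.14% were called there, and 13 genes are too few to set 0 calls apart from that share. Of these 13, 8 had an adjusted p of at most 0.01 with smaller changes. The share of all genes tested with such an adjusted p is not given here. NTRK2 had 1, 2 and 0 counts over the 3 libraries of each line, and NTRK3 had 0 in all. SORT1, the sortilin that pairs with NGFR to bind precursor neurotrophins, was at 142 ± 6.03, 132 ± 4.37 and 106 ± 5.47 CPM. SORCS2, a related receptor, was at 82.1, 33.6 and 22.6 CPM and was the 1 gene of this list called in LIM1215-R2 (log2 -1.86, SE 0.0794, adjusted p = 1.09e-16, edgeR). BDNF, a neurotrophin that NGFR can bind, was at 5.15, 10.8 and 8.51 CPM, a log2 difference of 1.07 in LIM1215-R1, which was below the threshold of 1.5.

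CA8 fell in both resistant lines, to different depths. The gene spans chr8:60185412-60281400 and had 55, 51 and 69 counts in the parental libraries (3.25, 3.68 and 3.62 CPM), 10, 13 and 9 in the LIM1215-R1 libraries (0.613, 0.816 and 0.563 CPM) and 1, 0 and 0 in the LIM1215-R2 libraries. The ranges of the 3 lines did not overlap. CA8 was 5.3-fold lower in LIM1215-R1 than in parental cells, a log2 change of -2.39 (SE 0.276, adjusted p = 6.89e-08, edgeR). In LIM1215-R2 the log2 fold change was -6.95 (SE 0.507, adjusted p = 9.64e-12, edgeR). Parental cells over LIM1215-R2 gave a pooled ratio of 170, with an exact 95% counting interval from 30 to 6734. The single LIM1215-R2 read left the pooled ratio of LIM1215-R1 over LIM1215-R2 at 32, with an exact 95% counting interval from 5.35 to 1304. This interval and those that follow describe counting error in a ratio by which the gene was chosen, and are no test. Without LIM1215-R2 replicate 1, which held that read, the level of CA8 in LIM1215-R1 exceeded that of LIM1215-R2 by at least 6.96-fold, and the fitted log2 value of LIM1215-R2 against parental cells was -8.83, which is no bound. Without replicate 2 or 3 the pooled ratio was 21.3 (interval 3.56 to 868) or 21.9 (3.65 to 891). Both resistant means, 0.664 ± 0.134 and 0.0198 ± 0.0343 CPM (SD, n = 3), were under 1 CPM.

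ITPR1, the binding partner of CA8, rose in both lines, from 9, 7 and 7 counts in the parental libraries to 83, 75 and 74 in LIM1215-R1 and 101, 107 and 88 in LIM1215-R2. The libraries of both resistant lines lay above all parental ones. Its log2 fold change was 3.36 (SE 0.238, adjusted p = 5.49e-12, edgeR) in LIM1215-R1 and 3.71 (SE 0.229, adjusted p = 2.9e-13, edgeR) in LIM1215-R2. ITPR2 was at 504 ± 20.6, 277 ± 18 and 404 ± 7.98 CPM, and ITPR3 at 490 ± 19.6, 474 ± 19.1 and 502 ± 8.11 CPM, and neither was called.

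The active carbonic anhydrases and related members of the family moved in both directions. Of 14 listed, 6 were tested, and 1 was called higher and 2 lower in each resistant line. Of all genes tested, 5.14% were called in LIM1215-R1 and 4.82% in LIM1215-R2. CA12, a membrane-bound carbonic anhydrase, was at 5.66, 0.289 and 0.084 CPM. Its log2 change was -4.25 in LIM1215-R1 (SE 0.28, adjusted p = 1.19e-12, edgeR) and -5.97 in LIM1215-R2 (SE 0.353, adjusted p = 1.14e-13, edgeR). CA1 fell from 1.27 to 0.188 and 0.125 CPM (adjusted p = 0.000185 and 5.08e-05, edgeR). CA11, which like CA8 lacks catalytic activity, rose from 0.823 to 3.53 and 3.06 CPM (adjusted p = 1.06e-07 and 8.54e-07, edgeR).

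CA2, a cytosolic carbonic anhydrase, was the 1 listed gene called between the resistant lines. Its libraries had 4, 10 and 5 counts in LIM1215-parental, 21, 19 and 13 in LIM1215-R1 and 6, 5 and 5 in LIM1215-R2. LIM1215-R1 was above all others. LIM1215-R2 was lower by 1.71 on the log2 scale (SE 0.444, adjusted p = 0.00983, edgeR), a call that was lost in each of the 6 fits without a library of LIM1215-R1 or LIM1215-R2, with adjusted p from 0.0131 to 0.0469.

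**Figure D2:**
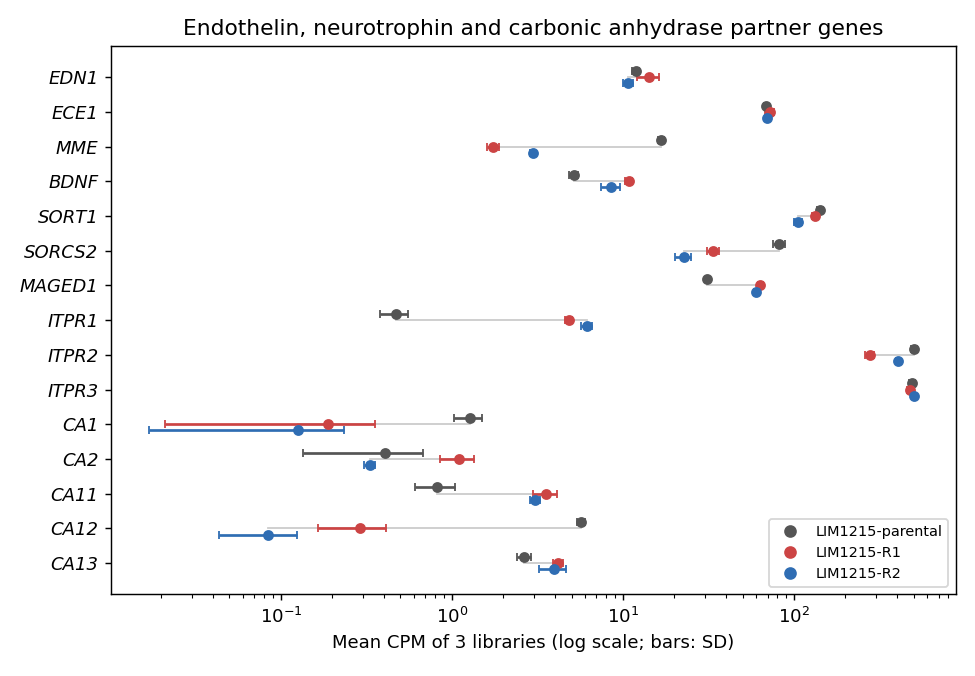
Mean CPM (horizontal axis, log scale; bars are the SD of 3 libraries) of genes of the endothelin, neurotrophin and carbonic anhydrase systems and the inositol trisphosphate receptors in the 3 lines. ECE1, SORT1 and ITPR3 stand within 1.5-fold in all lines, while MME, CA1 and CA12 are highest and ITPR1 lowest in parental cells.

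NUDT12 fell in LIM1215-R1 and was not called in LIM1215-R2. It lies at chr5:103548855-103562789. Parental libraries had 261, 168 and 299 counts (15.4, 12.1 and 15.7 CPM), LIM1215-R1 libraries had 5, 7 and 5 (0.307, 0.439 and 0.313 CPM) and LIM1215-R2 libraries had 220, 211 and 147 (13.1, 13.1 and 9.6 CPM). LIM1215-R1 stood far below the others, and the ranges of LIM1215-R2 and parental cells overlapped. Against parental cells, NUDT12 was 40.8-fold lower in LIM1215-R1 (log2 -5.33, SE 0.234, adjusted p = 1.82e-16, edgeR). In LIM1215-R2 the log2 fold change was -0.28 (SE 0.123, adjusted p = 0.0851, edgeR). The means of LIM1215-R2 and LIM1215-R1, 11.9 ± 2.01 and 0.353 ± 0.0749 CPM (SD, n = 3), stood 33.8-fold apart.

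Of 22 other Nudix hydrolases listed, 20 were tested and none was called in any comparison. Of all genes tested, 5.14% were called in LIM1215-R1, 4.82% in LIM1215-R2 and 0.764% between the resistant lines. The 20 genes are too few to set 0 calls apart from these shares. Against parental cells 6 had an adjusted p of at most 0.01 in each resistant line, with changes below the threshold. Between the resistant lines 1 had it, also with a change below the threshold. The share of all genes tested with such an adjusted p is not given here. Of 24 genes of NAD metabolism 16 were tested, and BST1, an ectoenzyme that uses NAD, was called, lower in both lines at 1.64, 0.313 and 0.201 CPM (adjusted p = 0.000424 and 9.56e-05, edgeR). SARM1, an NAD-cleaving enzyme that was chosen after its values were seen, was at 50.2 ± 2.3, 51.2 ± 3.58 and 23.9 ± 1.64 CPM, and its log2 difference of -1.1 between LIM1215-R2 and LIM1215-R1 did not reach the threshold of 1.5.

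C6orf141 rose in LIM1215-R2 and was not called in LIM1215-R1. The gene lies at chr6:49550668-49561916. Its libraries had 2, 0 and 3 counts in LIM1215-parental, 4, 12 and 2 in LIM1215-R1 and 216, 181 and 174 (12.8, 11.2 and 11.4 CPM) in LIM1215-R2. All LIM1215-R2 libraries were far above the rest, and the ranges of LIM1215-R1 and parental cells overlapped. C6orf141 was 129-fold higher in LIM1215-R2 than in parental cells (log2 6.78, SE 0.338, adjusted p = 3.29e-15, edgeR). LIM1215-R1 did not pass the threshold (log2 1.82, SE 0.711, adjusted p = 0.0465, edgeR), and 1 of its libraries held 12 of its 18 counts. LIM1215-R2, with a mean of 11.8 ± 0.902 CPM (SD, n = 3), was 31.5-fold above LIM1215-R1. Without LIM1215-R1 replicate 2, the library with 12 counts, this ratio was 63.6, and the log2 change of LIM1215-R1 against parental cells was 0.84 (adjusted p = 0.484, edgeR).

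Of 31 other genes named for the pleckstrin homology domain of PLEKHS1, 30 were tested. PLEKHF1, an endosomal protein, was called higher in both lines, at 0.389, 2.5 and 3.52 CPM (adjusted p = 1.17e-06 and 2.32e-08, edgeR). PLEKHG4B was called in LIM1215-R2 (log2 2.21, SE 0.57, adjusted p = 0.00316, edgeR), with 8, 8 and 37 counts over the 3 libraries of each line. The 7 lists of partners and family members held 125 genes, 92 of them tested. In LIM1215-R1 against parental cells 3 were called higher and 4 lower, which is 7.61% of those tested against 5.14% of all genes. The median log2 fold change was -0.02 against -0.01 over all genes. In LIM1215-R2 4 were called higher and 5 lower (9.78% against 4.82%), with a median of -0.12 against 0 over all genes. Between the resistant lines CA2 alone was called (1.09% against 0.764%), with a median of -0.05 against 0.

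Counted together, 5 of the 6 genes were called in LIM1215-R1 against parental cells, where 5.14% of all genes tested were called, and 3 of 6 in LIM1215-R2, where 4.82% were. A call needed both an adjusted p no higher than 0.01 and a log2 change of 1.5 or more in size. In LIM1215-R1, PLEKHS1, EDN3 and NGFR were the 3 called higher (background 3.24%) and NUDT12 and CA8 the 2 called lower (1.91%), and in LIM1215-R2, C6orf141 was the 1 called higher (2.63%) and PLEKHS1 and CA8 the 2 called lower (2.19%). A gene at least 8-fold apart between the resistant lines must differ from the parental level in at least 1 of them, so these counts follow in part from the choice. Between the resistant lines, 0.764% of all genes tested were called, 0.215% higher in LIM1215-R2 and 0.55% lower, and of the 6 genes chosen on this contrast 2 were higher and 4 lower. Under a stricter test against a log2 fold change of 1.5 (glmTreat), CA8 was not called in LIM1215-R1, with an adjusted p of 0.0195 in edgeR.

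**Figure D3:**
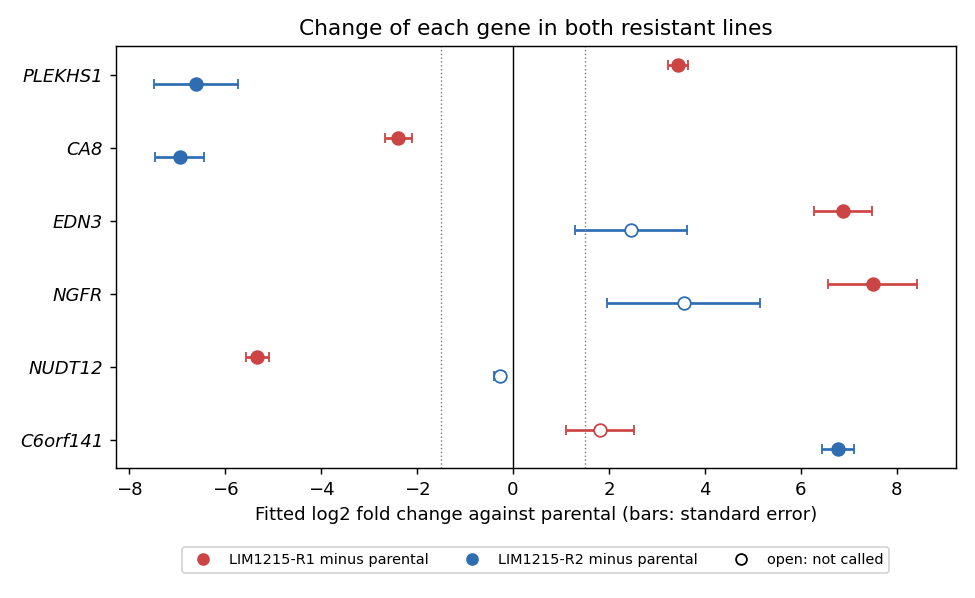
Fitted log2 fold change against parental cells (horizontal axis; bars are the SE) of each gene in LIM1215-R1 and LIM1215-R2, with filled points for changes called and dotted lines at the threshold of 1.5. PLEKHS1 lies at 3.44 in LIM1215-R1 and on the negative side in LIM1215-R2, and fitted values against a line with 0 counts are no bounds.

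On the scale of CPM per kilobase of the main transcript, which allows levels to be compared between genes, C6orf141 in LIM1215-R2 was the highest at 8.27, followed by NUDT12 in LIM1215-parental at 4.13 and in LIM1215-R2 at 3.42. In LIM1215-R1, PLEKHS1 stood at 1.96, EDN3 at 1.33 and NGFR at 0.407 CPM per kilobase. CA8 did not exceed 0.613 CPM per kilobase in any line.

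The 6 genes lie on 6 chromosomes. Within 1 Mb of them, 86 other genes were tested. Of these 86, 1 was called between the resistant lines (background 0.764% of all genes tested). Against parental cells, 3 of the 86 were called for LIM1215-R1 (background 5.14%) and 4 for LIM1215-R2 (background 4.82%). Their median log2 difference between LIM1215-R2 and LIM1215-R1 was 0.01, against 0 over all genes tested. CENPQ at 57.6 kb from C6orf141 was at 13.2, 17.4 and 18 CPM, and MACIR at 270.2 kb from NUDT12 was at 36, 30.6 and 35.7 CPM. CENPQ and MACIR are the nearest tested genes to C6orf141 and NUDT12 and were chosen after the positions were read. Neither was called in any comparison.

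NXPH3, which encodes a secreted neurexophilin, was the 1 neighbour called between the resistant lines, 60.9 kb from NGFR. It had 14, 15 and 14 counts in the LIM1215-parental libraries, 11, 18 and 21 in LIM1215-R1 and 55, 63 and 67 in LIM1215-R2. All LIM1215-R2 libraries were above the rest, so NXPH3 was higher in the line in which NGFR was lower. The log2 difference between LIM1215-R2 and LIM1215-R1 was 1.88 (SE 0.249, adjusted p = 4.45e-06, edgeR). MIR4483 within PLEKHS1 and NGFR-AS1 and MIR6165 at NGFR, the annotated genes that overlap one of the 6, had 0 counts in all 9 libraries.

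**Figure D4:**
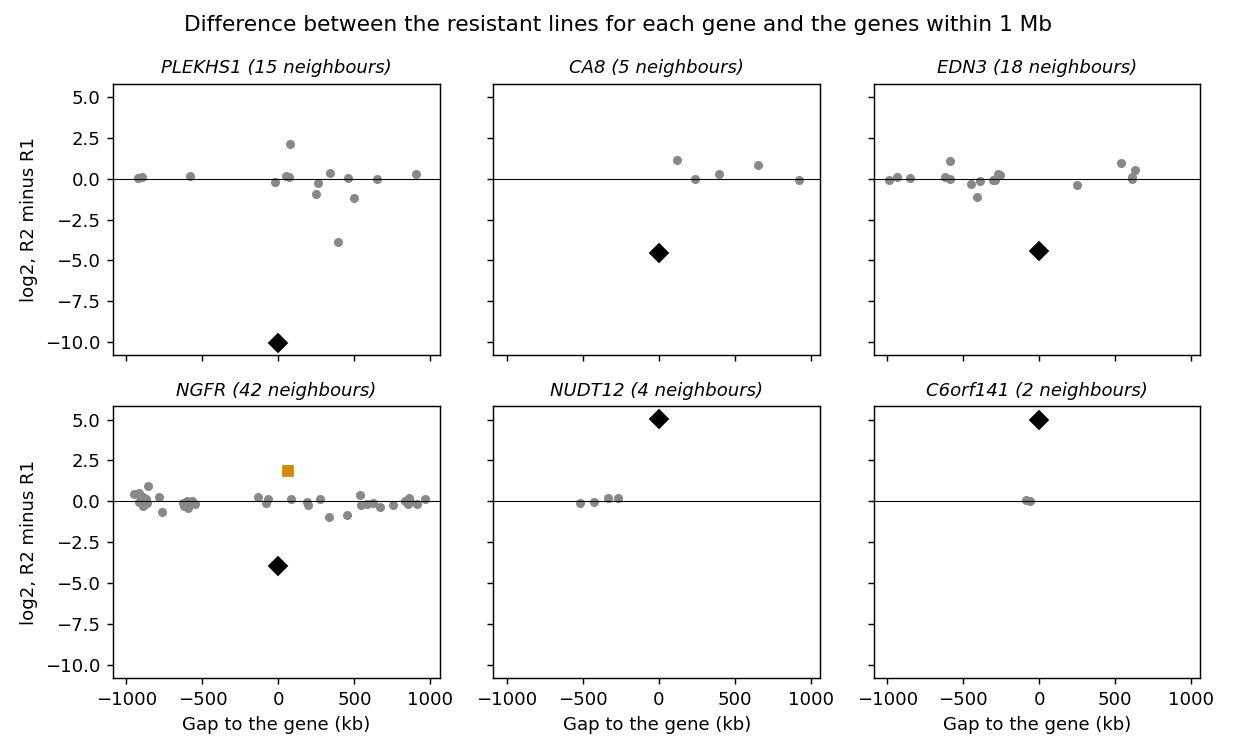
Log2 difference between LIM1215-R2 and LIM1215-R1 (vertical axis) for each of the 6 genes (diamonds) and the tested genes within 1 Mb, by the gap in kb (horizontal axis). NXPH3 near NGFR (orange square, 1.88) is the neighbour called, and the grey points away from 0 near PLEKHS1 are low-count genes that were not called.

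The rule was met by more genes than these 6. Of 12738 genes tested with at least 1 CPM in the higher resistant line, 27 differed by at least 8-fold, with 17 above in LIM1215-R1 and 10 higher in LIM1215-R2. PLEKHS1, NUDT12, C6orf141, EDN3 and NGFR are among these 27, and CA8 was left out by its level under 1 CPM. Just inside the limit were CDH13 at 8.15-fold and DACH1 at 8.04-fold, and just outside it were B3GALT1 at 7.95-fold and NTSR1 at 7.75-fold.

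The calls of the 27 genes against parental cells follow in part from the way they were chosen. Among the 17 higher in LIM1215-R1, 8 were called in LIM1215-R1 alone, EDN3 and NGFR among them, 5 in LIM1215-R2 alone, 3 in both, PLEKHS1 among them, and 1 in neither. Among the 10 higher in LIM1215-R2, 4 were called in LIM1215-R1 alone, NUDT12 among them, 5 in LIM1215-R2 alone, C6orf141 among them, and 1 in both. MUC5AC, a gel-forming mucin that was chosen after its values were seen and whose reads may be shared with similar mucins, was at 22.3, 20.1 and 296 CPM, the pattern of C6orf141 at a higher level. KCNS3, a potassium channel subunit also chosen in this way, was at 1.4, 0.0836 and 3.07 CPM, low in LIM1215-R1 like NUDT12.

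**Figure D5:**
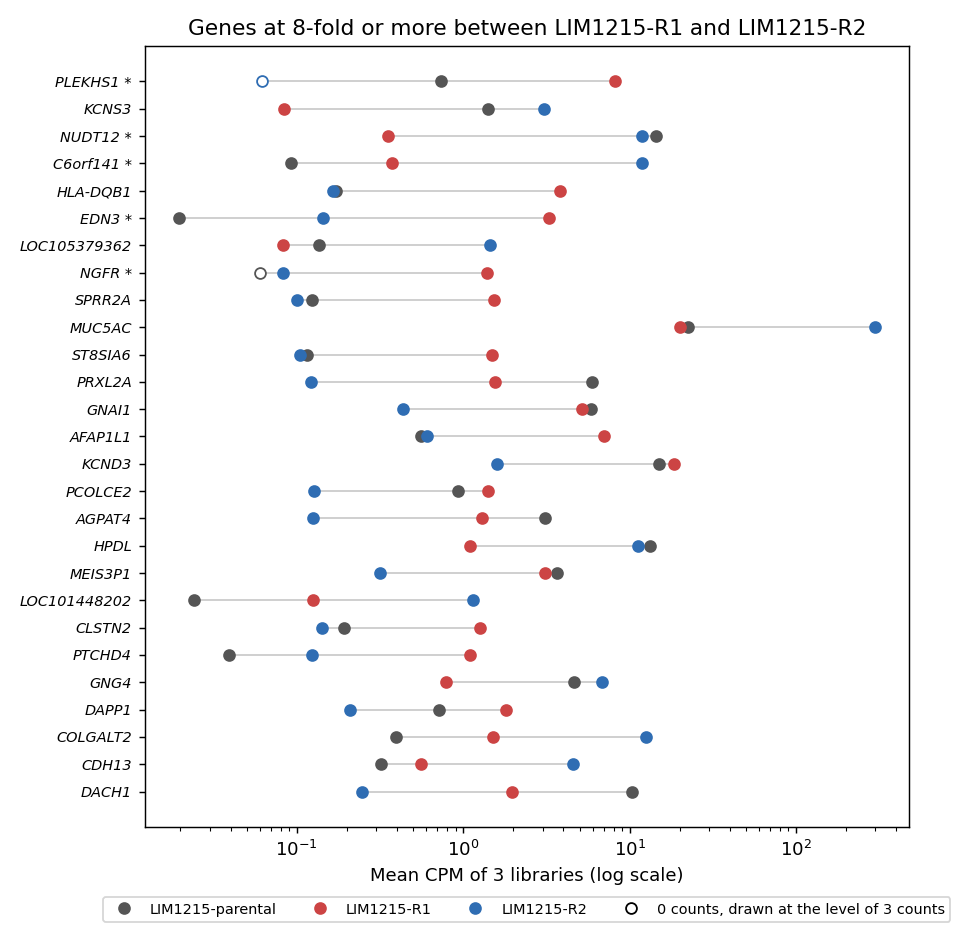
Mean CPM of 3 libraries (horizontal axis, log scale) in the 3 lines for the 27 genes at 8-fold or more between LIM1215-R1 and LIM1215-R2, in order of the fold, with an asterisk on PLEKHS1, NUDT12, C6orf141, EDN3 and NGFR. Open circles are lines with 0 counts, drawn at 3 counts over the 3 libraries, and PLEKHS1 has the widest gap, at least 131-fold.

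The genes whose levels ran most like each of the 6 over the 9 libraries were ranked by Pearson's r of log2 CPM among 13033 genes, as a description, since the libraries of a line share their source. The order depended on the prior count added to low values: with 0.5 in place of 2, 13 of the 18 genes stayed on the lists and another gene came first for each of the 6. With a prior count of 2, NUDT12 ran most like HPDL, a dioxygenase-like protein (r = 0.995), which was at 13.3, 1.1 and 11.3 CPM, and then like PRKD3 and ADAMTS15. HPDL was high in both lines with high NUDT12. C6orf141 ran most like CDH13, an atypical cadherin (r = 0.981), at 0.322, 0.559 and 4.56 CPM, followed by ADAT1 and CORO1A.

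At the same prior count, CA8 ran most like TMEM238L (r = 0.998), at 22.2, 10.2 and 3.73 CPM, followed by SPTLC3 and MARK1, all falling in the order of CA8. EDN3 ran most like GXYLT2, a xylosyltransferase (r = 0.994), at 0.284, 1.81 and 0.372 CPM, followed by NAA20 and GJB2. Most like NGFR were BTN2A2 (r = 0.98), ANXA4 and MIR1915HG, and most like PLEKHS1 were TMCC3 (r = 0.988), CCND2 and EIF3B. With 0.5, BTN2A2, MIR1915HG, EIF3B, CORO1A and MARK1 were no longer among the first 3, and PRKD3 came first for NUDT12, ADAT1 for C6orf141, SERPINI1 for CA8, NAA20 for EDN3, ANXA4 for NGFR and CCND2 for PLEKHS1. Several of these, such as EIF3B at 439, 485 and 398 CPM, varied over a much narrower range than the gene they followed.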

How the data were processed

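For each line (parental, R1 and R2), RNA was sequenced in 3 libraries. The authors mapped reads to hg38 (STAR), assigned reverse-strand reads to genes with HTSeq 0.9.1 and deposited raw counts per gene and library, not normalized. The gene annotation is not given in the sources used here.

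The analysis used edgeR 4.0.16 under R 4.3.3. Genes needed 10 or more counts in all 9 libraries together, scaling was by TMM, and 1 quasi-likelihood model, in which each line was a group, covered the 19102 genes left, with Benjamini-Hochberg adjustment over all of them. A call required adjusted p ≤ 0.01 and a log2 change of 1.5 or more in size. Standard errors were derived from the test statistic. Folds against a line with 0 counts are lower bounds against 3 counts over its 3 libraries (parental 0.0602 CPM, R1 0.0622 CPM, R2 0.0621 CPM). Lines with 1 to 3 counts have the ratio of pooled levels with an exact 95% interval. Floors and intervals cover counting error only, and intervals of ratios between the resistant lines are no tests. The 3-count floor of 1 library was 0.158 to 0.217 CPM.

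The 6 genes, the gene lists and the tests were chosen with earlier results of these data known. Named genes were the 6 genes, list genes that were called, the receptors EDNRA, EDNRB, NTRK2, NTRK3, SORT1 and ITPR1 to ITPR3, neighbours within 1 Mb called between the resistant lines, the 3 genes most alike (log2 CPM, prior count 2, at least 1 CPM in 1 line), genes next to the 8-fold limit and overlapping genes; others are marked, and some genes under this rule were left out here. Positions and promoters came from RefSeq (GRCh38.p14), with promoters for 2 of the 6 genes, and transcript lengths from GENCODE. Libraries of a line differed by more than sampling noise (chi-square over degrees of freedom 1.89 to 6.58). The test of LIM1215-R1 against parental cells was tried on simulated data, with changes placed only in genes of higher counts. That trial did not cover low levels such as those of EDN3 and NGFR, or the other comparisons. Alternatives were other filters, scalings (DESeq2 1.42.0), thresholds and tests, fits to 6 libraries, a replicate block and each library left out.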

Additional observations from a re-analysis of the deposited data

Results flagged for a closer look

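PLEKHS1 moved in opposite directions in the resistant lines, since every LIM1215-R1 library lay above and every LIM1215-R2 library below the parental libraries. The fitted log2 fold change against parental cells was 3.44 for LIM1215-R1 and -6.61 for LIM1215-R2, where the counts were 0 and the fitted value is no bound. The difference was not tested, because it is the contrast by which the gene was chosen.

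CA2 and NXPH3 differed between the resistant lines by a test of the difference itself, and both are outside the 6. CA2 was lower in LIM1215-R2 than in LIM1215-R1 by a log2 difference of -1.71 (adjusted p = 0.00983, edgeR), and lower in 3 of 3 libraries. That call was lost without any 1 library of LIM1215-R1 or LIM1215-R2, with total counts in place of TMM, under the Wald test of DESeq2 and under glmTreat. NXPH3, which lies near NGFR, was higher by 1.88 (adjusted p = 4.45e-06, edgeR), in 3 of 3 libraries, and was not called under glmTreat.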

How the results depend on the processing

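The calls of the 6 genes kept their direction under all 18 alternatives, with 4 to 5 genes called for LIM1215-R1 and 3 for LIM1215-R2. The lowest count came from the test against the threshold itself (glmTreat) and left out CA8. EDN3 and NGFR in LIM1215-R2 against parental cells had under 10 counts in the fit to 6 libraries and were not tested there. With glmTreat, 405 genes were called in LIM1215-R1, 408 in LIM1215-R2 and 23 between the resistant lines, against 982, 921 and 146. A log2 threshold of 1 gave 270 between the resistant lines. Among listed genes, glmTreat called 3 in LIM1215-R1 and 5 in LIM1215-R2, against 7 and 9, and a threshold of 1 called 12 in LIM1215-R1. Between the resistant lines, the 1 listed gene called, CA2, was joined by PLEKHG4B, for 2 in all, with a filter of 1 count over the 9 libraries, with 10 counts in every library of 1 line and with the 6 libraries alone, and by SARM1 at a threshold of 1. The count was 0 with total counts in place of TMM (CA2 adjusted p = 0.0102, edgeR), under the Wald test of DESeq2 (adjusted p = 0.03) and under glmTreat, and ran from 0 to 2 with each library left out. Without LIM1215-R1 replicate 1, 2 or 3 the adjusted p of CA2 was 0.0356, 0.0349 or 0.0131 in edgeR, and without LIM1215-R2 replicate 1, 2 or 3 it was 0.0404, 0.0469 or 0.0299. It was 1 under glmTreat, and ran from 0.00274 to 0.0469 under the other alternatives. NXPH3 was not called with glmTreat (adjusted p = 1), which left 0 neighbours called. A prior count of 0.5 kept 13 of the 18 most alike genes. The cause of these moves was not tested. The lower bound for PLEKHS1 depends on depth: without 1 library of LIM1215-R2 its log2 value was -6.42 to -6.49 in place of -7.03.

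Whether the replicate numbers pair the samples was not settled, since the few correlations available cannot exclude shared handling. Deviations of same-numbered libraries correlated at -0.106 to 0.274, over 0.1 in 3 of 9 pairs. Those of differently numbered libraries correlated at -0.265 to 0.191, over 0.1 in 3 of 18 pairs. With the replicate number as a block, 976 genes were called in LIM1215-R1, 931 in LIM1215-R2 and 163 between the resistant lines, with 5 and 3 of the 6 genes against parental cells and 2 listed genes (CA2 and PLEKHG4B) between the resistant lines.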
